A study of Mus musculus with 6 samples.

Results

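The guidance genes described here encode semaphorins, netrins, Slits and ephrins with their plexin, neuropilin, DCC, UNC5, Robo and Eph receptors, 57 genes out of 20972 that could be named on a mouse expression array. They are 32 ligands (19 semaphorins, 2 netrins, 3 Slits and 8 ephrins) and 25 receptors (9 plexins, 2 neuropilins, DCC with 4 UNC5 proteins, 2 Robos and 7 Eph receptors). The list was selected from results of the same 6 arrays, with levels and differences between the groups already known, so its counts of calls are given as a description and carry no test of the list. Of the 57 genes, 47 were measured well above background in both clones of a group, for 1 group or more, and entered the fit, among 14595 genes tested.

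Semaphorins are secreted or membrane-bound ligands that act through plexins, and the secreted class 3 proteins mostly need a neuropilin as co-receptor. Netrin draws growing axons or cells towards its source through DCC and repels them through UNC5 proteins, and Slits repel through Robos. Ephrins are held in the membrane, the A class by a lipid anchor and the B class by a transmembrane segment, so that they meet Eph receptors on a neighbouring cell and both cells can signal. Outside the nervous system the same families act in vessel growth, epithelial sorting and boundary formation in the embryo.

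The study replaced mouse OCT4, the POU-domain factor that embryonic stem cells need to stay pluripotent, with POUV proteins of the coelacanth, a lobe-finned fish. ZHBTc4, a line of mouse embryonic stem cells whose resident Oct4 transgene is switched off by tetracycline, received by electroporation a pCAG-IP plasmid that carries the POUV coding sequence behind a CAG promoter. Cells were kept in serum and LIF. All 3 groups had 2 µg/mL tetracycline, with 1 µg/mL puromycin from day 2, and colonies were picked on day 9. The groups were cells rescued by mouse OCT4 (mOct4, clones 1 and 2), by coelacanth POU5F1 (LcPOU5F1, clones 4 and 5) and by coelacanth POU5F3 (LcPOU5F3, clones 1 and 2). Each line came from 1 picked colony and had 1 array, so a test measures how far clones picked apart from each other vary, and with so few arrays its precision is limited. The RNA integrity number was 10, and since whole lines were measured, fewer cells of a type and less RNA per cell cannot be told apart.

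Levels are log2 signals relative to the 75th percentile of the same array, and a log2 difference is a difference of 2 group means on that scale, with its standard error (SE) from limma, n = 2 clones a group. A gene was called where the Benjamini-Hochberg adjusted p from limma over all 14595 genes was below 0.05. Where no array of a group was well above background the ratio is a bound. It is then written "at least N-fold". The dim group is given a floor, the lowest signal well above background on each array (or the gene's own signal where that is higher), and the mean of the bright group is divided by the mean floor. Each difference between groups was taken on 1 probe.

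As a check of the arrays, 43.5% to 57.8% of probes were well above background. For mouse Pou5f1 the probe was measured in both mOct4 clones, at log2 levels of -1.75 and -1.47, and was not well above background in the other 4 lines. Whether this probe reads the rescue transgene was not tested, so these levels are not taken as the level of the transgene. Over all genes, the difference between a group's 2 clones had an SD of 0.30 for mOct4, 0.49 for LcPOU5F1 and 0.70 for LcPOU5F3. All 10 embryonic stem cell markers (Nanog, Sox2, Esrrb and others) were well above background on all 6 arrays, and 8 of them were called lower in LcPOU5F3 than in mOct4. The summed signal of 9 measured trophectoderm markers, in multiples of the array's 75th percentile, lay between 23.6 and 36.0 in the mOct4 and LcPOU5F1 clones and at 524 and 549 in the LcPOU5F3 clones. For 8 mesenchyme markers the same sum lay between 15.6 and 35.8 in the first 4 lines and at 53.0 and 124 in LcPOU5F3. The sum of 6 endoderm markers lay between 12.3 and 19.5 against 46.1 and 50.9 in LcPOU5F3, and that of 7 neural markers between 22.3 and 41.1 against 8.31 and 7.72. The sum of 4 endothelial markers lay between 7.28 and 9.45 in the mOct4 and LcPOU5F1 clones and at 6.29 and 5.91 in LcPOU5F3. A sum weighs its brightest markers most. In LcPOU5F3 against mOct4, 6 trophectoderm markers were called higher and 1 lower, and 2 endoderm markers higher and 1 lower. For mesenchyme 4 were higher and 0 lower, for neural markers 0 and 4, and for endothelium 0 and 1. Of all genes, 11.8% were called higher and 11.7% lower. Elf5, Postn, Neurog2, Dcx, Cdh5, Tie1, Emcn, Erg and Afp were well above background on no array. What part these cell type differences have in the values of the guidance genes was not tested.

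The promoters of 5 members are shown because 4 of them, Sema3c, Efna5, Efnb1 and Efnb2, were called higher in LcPOU5F3 than in LcPOU5F1 whichever single clone was left out, and the fifth, Unc5a, was the member called lower in both coelacanth groups than in mOct4. Each line gives the 200 bases before the transcription start in RefSeq's annotation of GRCm38.p6, read 5′ to 3′ along the gene's strand, with every CpG in capitals. The windows are Sema3c, chr5:17574616-17574815 on the plus strand; Efna5, chr17:62881318-62881517 on the minus strand; Efnb1, chrX:99135861-99136060 on the plus strand; Efnb2, chr8:8661243-8661442 on the minus strand; and Unc5a, chr13:54949211-54949410 on the plus strand.
Sema3c: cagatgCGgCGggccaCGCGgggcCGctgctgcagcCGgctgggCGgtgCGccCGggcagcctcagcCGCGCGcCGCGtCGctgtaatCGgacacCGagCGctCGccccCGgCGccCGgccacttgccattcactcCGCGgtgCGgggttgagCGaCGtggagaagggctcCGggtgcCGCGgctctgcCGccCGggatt
Efna5: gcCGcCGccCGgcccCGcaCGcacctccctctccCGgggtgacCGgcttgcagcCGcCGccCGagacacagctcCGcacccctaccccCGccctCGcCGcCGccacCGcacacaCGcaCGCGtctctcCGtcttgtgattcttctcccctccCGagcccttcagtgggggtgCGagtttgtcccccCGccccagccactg
Efnb1: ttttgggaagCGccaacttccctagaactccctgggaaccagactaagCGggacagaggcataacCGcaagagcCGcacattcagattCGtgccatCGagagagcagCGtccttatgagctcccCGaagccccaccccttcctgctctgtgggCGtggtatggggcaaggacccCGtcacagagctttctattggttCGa
Efnb2: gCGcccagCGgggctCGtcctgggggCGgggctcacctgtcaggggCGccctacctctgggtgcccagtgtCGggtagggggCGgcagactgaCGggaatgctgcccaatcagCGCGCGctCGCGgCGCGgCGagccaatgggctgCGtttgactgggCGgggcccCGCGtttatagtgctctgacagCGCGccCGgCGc
Unc5a: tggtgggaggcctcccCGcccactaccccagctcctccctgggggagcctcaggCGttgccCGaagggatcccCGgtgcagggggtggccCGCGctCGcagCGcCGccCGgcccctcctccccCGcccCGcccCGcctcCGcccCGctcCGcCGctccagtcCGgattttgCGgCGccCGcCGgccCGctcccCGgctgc

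RefSeq's promoter table, with windows of 300 bases around each start, matched 47 of the 57 members (63 windows). The median member window held 20 CpG and 64.7% G and C, against 7 CpG and 52.7% over all 32851 windows. Sema3c had 42 CpG, Efna5 38, Unc5a 37 and Efnb2 35, while Efnb1, called higher in the same clones, had 14. The octamer ATGCAAAT, a sequence that POU proteins recognise, was searched on both strands and stood in 0 of the 63 member windows and in 1.74% of all windows. That says only that these letters are not in these windows. TATAAA stood in 2 member windows, those of Efnb2 and Slit2 (3.17% against 13.6% of all), and CCAAT in 16 windows of 14 members (25.4% against 37.4%), Efnb1 and Efnb2 among them. These motifs too were counted on either strand. On the strand shown above, Efnb2 reads tttata and Efnb1 attgg, the reverse complements.

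Among the members, as among all genes, most calls fell in the comparisons that involve LcPOU5F3. Against mOct4, 9 of the 47 tested members were called higher in LcPOU5F3 and 7 lower, beside 11.8% of all tested genes called higher and 11.7% called lower. Between LcPOU5F1 and mOct4, 0 members were called higher and 1 lower, beside 0.0137% and 0.0206% of all genes. In that comparison limma gave an unadjusted p under 0.05 to 5 members that were higher and 4 that were lower, together 19.1% of the 47, beside 15.6% of all genes. Between the coelacanth groups, 4 members were higher in LcPOU5F1 and 10 were higher in LcPOU5F3, beside 10.6% and 9.99% of all genes. In all, 20 members were called in at least 1 comparison. Since the list was drawn up with these contrasts known, nothing is read from these shares.

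Sema3c, Sema3e, Sema6a, Unc5b, Efna5, Efnb1, Efnb2 and Epha1 were called higher in LcPOU5F3 than in both other groups, and Ntn1 and Efnb3 were called lower than in both. The comparisons against mOct4 use the same mOct4 arrays, and both comparisons of LcPOU5F3 use the same LcPOU5F3 arrays, so their values are set side by side and not counted as separate evidence. The median log2 difference of the members was -0.03 for LcPOU5F3 against mOct4, 0.09 for LcPOU5F1 against mOct4 and 0.03 for LcPOU5F1 against LcPOU5F3. The same medians over all genes were -0.09, 0.10 and 0.21. Among the 28 tested ligands 6 were higher and 5 lower in LcPOU5F3 than in mOct4, and among the 19 tested receptors 3 were higher and 2 lower. With normexp background correction, the LcPOU5F3 against mOct4 split of the members was 10 higher and 5 lower. With arrays centred on their medians, the split of all genes between LcPOU5F1 and LcPOU5F3 moved from 1545 higher and 1458 lower to 449 higher and 1796 lower. That of the members moved from 4 and 10 to 5 and 12. In the median-centred fit limma gave all genes 1 common variance, with 43785 total degrees of freedom against 5.16 with the reported settings. For every call gained or lost with median centring, this change and the centring cannot be told apart.

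**Figure D1:**
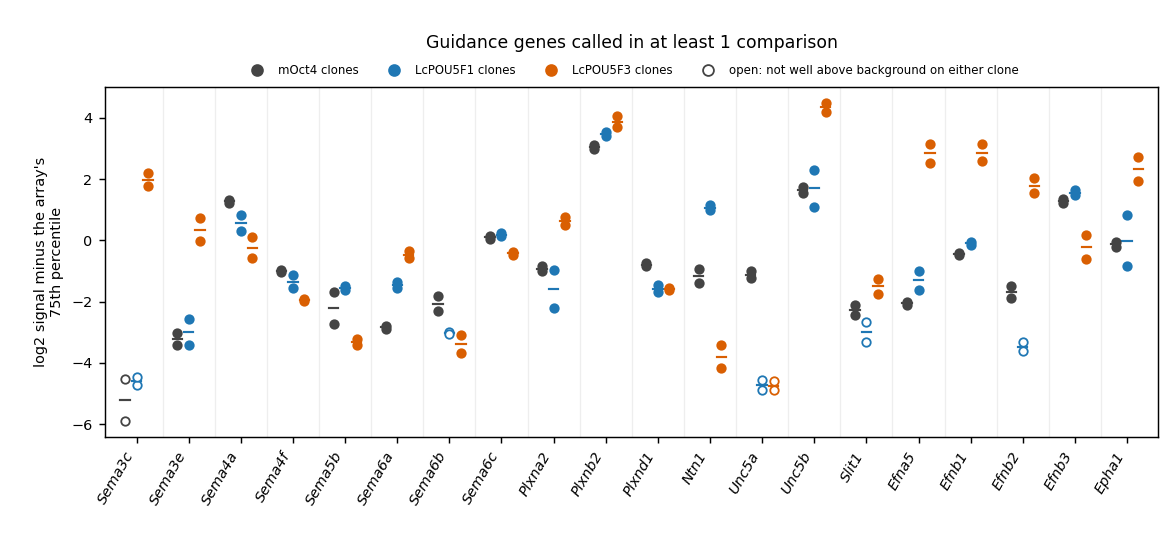
Log2 level (y axis, relative to the array's 75th percentile) of the 20 members called in at least 1 comparison, with 1 point per clone, a bar at each group's mean and open points where no array of the group was well above background. Both LcPOU5F3 points of Sema3c, Efna5, Efnb1 and Efnb2 lie at 1.53 or higher, and all mOct4 and LcPOU5F1 points of these genes lie below 0.

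Many calls ended when 1 mOct4 clone was left out. Such a fit has fewer residual degrees of freedom. It also loses the spread of the mOct4 pair, the smallest of the 3 groups (SD 0.30 against 0.49 and 0.70). Differences between LcPOU5F1 and LcPOU5F3 do not use the mOct4 arrays and kept their values. A call lost there thus reflects the estimated spread and the adjustment, not a changed difference. Of the 31 called differences, 6 held whichever single clone was left out: Sema3c in both of its comparisons, and Ntn1, Efna5, Efnb1 and Efnb2 between LcPOU5F1 and LcPOU5F3. Without mOct4 clone 1, 8 of the 31 held, and without mOct4 clone 2, 9. Over all 14595 genes the number called for LcPOU5F3 against mOct4 then fell from 1724 higher and 1712 lower to 31 and 5 without clone 1 and to 39 and 7 without clone 2. Among the other clones, 22 calls held without LcPOU5F1 clone 4, 20 without clone 5, 31 without LcPOU5F3 clone 1 and 21 without clone 2. The sentences on each family name the clones whose absence ended a call and give the value found without them.

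Processing choices also ended calls. Without the filter on dim probes 15 of the 31 were lost: Sema4a, Sema4f, Sema6b, Plxnb2 and Plxnd1 against mOct4, Unc5a between LcPOU5F1 and mOct4, Sema5b, Sema6a, Sema6c, Plxna2 and Slit1 between the coelacanth groups, and both calls of Efnb3 and of Epha1. With only the 4 arrays of a comparison fitted, 10 were lost: Sema6b and Plxnb2 against mOct4, Sema6a, Sema6c, Plxna2, Unc5b, Slit1 and Epha1 between the coelacanth groups, and both of Efnb3. Normexp background correction, which raises dim signals, ended 3 calls and a common floor 6, and these are named with their genes.

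Class 3 semaphorins, the secreted class, were called higher in LcPOU5F3 or not called. Sema3c, a secreted ligand of neuropilin and plexin complexes that acts in the heart's outflow tract, had log2 levels of 1.78 and 2.20 in the LcPOU5F3 clones. In mOct4 its levels were -5.89 and -4.51 and in LcPOU5F1 -4.73 and -4.47, on none of those 4 arrays well above background. The LcPOU5F3 clones were thus the only lines with a measured level, and they did not overlap the others. The log2 difference from mOct4 was 7.19 ± 0.47 (SE), at least 52.4-fold, and LcPOU5F1 minus LcPOU5F3 was -6.59 ± 0.47, at least 26.4-fold lower. On the other Sema3c probe the log2 differences were 4.91 and -3.66, and with normexp correction 3.74 and -3.57, both still called.

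Sema3e, which binds plexin-D1 without a neuropilin, had log2 levels of -0.02 and 0.73 in LcPOU5F3, -3.41 and -3.01 in mOct4 and -2.56 and -3.42 in LcPOU5F1, where 1 of 2 arrays was well above background. Both LcPOU5F3 clones were above the other 4 lines. It was 11.8-fold higher in LcPOU5F3 than in mOct4 (log2 difference 3.56 ± 0.40) and 10.2-fold higher than in LcPOU5F1 (LcPOU5F1 minus LcPOU5F3 -3.34 ± 0.40). The first call was lost without mOct4 clone 1 (3.36) or clone 2 (3.76), and the second without LcPOU5F1 clone 5 (-2.91). With normexp correction the differences were 2.16 and -1.91, both called. Sema3b, another secreted ligand, had log2 levels of -0.16 and 0.30 in mOct4, -0.08 and 1.37 in LcPOU5F1 and 1.25 and 1.5 in LcPOU5F3. Its log2 difference of 1.30 ± 0.50 between LcPOU5F3 and mOct4 was not called, although those 2 groups did not overlap; it was called at 1.30 when either LcPOU5F1 clone was left out. Sema3f, a ligand of neuropilin-2, lay between -0.09 and 0.86 on the log2 level scale in all 6 lines and was not called. Sema3a and Sema3d had no level well above background in enough arrays to be tested.

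The class 4 semaphorins, which span the membrane, showed smaller differences, and the 2 that were called were lower in LcPOU5F3 than in mOct4. Sema4a, best known from immune cells, had log2 levels of 1.33 and 1.24 in mOct4, 0.85 and 0.29 in LcPOU5F1 and 0.10 and -0.59 in LcPOU5F3. The 3 groups did not overlap, with LcPOU5F1 between the others. It was 2.88-fold lower in LcPOU5F3 than in mOct4 (log2 difference -1.52 ± 0.31), a call lost without mOct4 clone 1 (-1.48) or clone 2 (-1.57). Without LcPOU5F3 clone 1 the difference between LcPOU5F1 and LcPOU5F3 was also called, at 1.16 instead of 0.81.

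Sema4f had the same order of groups, with log2 levels of -0.98 and -1.03 in mOct4, -1.13 and -1.55 in LcPOU5F1 and -1.91 and -1.97 in LcPOU5F3. It was 1.91-fold lower in LcPOU5F3 than in mOct4 (log2 difference -0.93 ± 0.19), and the call was lost without mOct4 clone 1 (-0.90), mOct4 clone 2 (-0.96) or LcPOU5F3 clone 2 (-0.90), with quantile normalization (-0.82) and with centring on the median (-0.89). Sema4c, a ligand of plexin-B2, had log2 levels between 6.09 and 6.67 in all 6 lines and was not called. Sema4b, Sema4d and Sema4g were not called either, with log2 differences between -0.67 and 0.06 for LcPOU5F3 against mOct4.

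In classes 5 to 7 the directions were mixed. Sema5b, a membrane semaphorin with thrombospondin repeats, had log2 levels of -1.62 and -1.47 in LcPOU5F1, -1.67 and -2.73 in mOct4 and -3.22 and -3.42 in LcPOU5F3, where 1 of 2 arrays was well above background. The mOct4 clones lay between the coelacanth groups. It was 3.42-fold higher in LcPOU5F1 than in LcPOU5F3 (log2 difference 1.77 ± 0.36), and the call was lost without LcPOU5F1 clone 4 (1.85), LcPOU5F1 clone 5 (1.70) or LcPOU5F3 clone 2 (1.67). With a common floor on dim signals the difference was 0.89 and with quantile normalization 1.53, neither called, and with normexp correction it was 0.91. Sema5a was not tested.

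Sema6a, a transmembrane ligand of plexin-A2 and plexin-A4, was higher in LcPOU5F3 than in both other groups. Its log2 levels were -2.79 and -2.88 in mOct4, -1.55 and -1.35 in LcPOU5F1 and -0.59 and -0.34 in LcPOU5F3, and the 3 groups did not overlap. It was 5.18-fold higher in LcPOU5F3 than in mOct4 (log2 difference 2.37 ± 0.17), lost without mOct4 clone 1 (2.42) or clone 2 (2.33). It was 1.98-fold lower in LcPOU5F1 than in LcPOU5F3 (-0.99 ± 0.17), lost without either mOct4 clone (-0.99 each), LcPOU5F1 clone 4 (-0.89) or LcPOU5F1 clone 5 (-1.09). With normexp correction these differences were 1.38 and -0.59. The log2 difference of 1.39 ± 0.17 between LcPOU5F1 and mOct4 was not called with all 6 arrays and was called without LcPOU5F3 clone 1 or clone 2, at 1.39.

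Sema6b, a ligand of plexin-A4, had log2 levels of -2.32 and -1.82 in mOct4, -2.98 and -3.06 in LcPOU5F1 and -3.10 and -3.68 in LcPOU5F3. It was measured above background in both mOct4 clones, on 1 LcPOU5F3 array and on no LcPOU5F1 array. It was 2.50-fold lower in LcPOU5F3 than in mOct4 (log2 difference -1.32 ± 0.27), a call that held without LcPOU5F3 clone 1 and was lost without each of the other 5 clones (-1.57 and -1.07 without mOct4 clones 1 and 2, -1.32 without either LcPOU5F1 clone, -1.03 without LcPOU5F3 clone 2). With a common floor on dim signals the difference was -0.37, and with normexp correction -0.55, neither called.

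Sema6c, also a transmembrane ligand, had log2 levels of 0.04 and 0.15 in mOct4, 0.25 and 0.13 in LcPOU5F1 and -0.37 and -0.47 in LcPOU5F3, the lowest group. It was 1.52-fold higher in LcPOU5F1 than in LcPOU5F3 (log2 difference 0.61 ± 0.14), and a second probe gave 0.65. That call was likewise held without LcPOU5F3 clone 1 and lost without each other clone (0.55 to 0.67), and it was lost with centring on the median (0.18), the mean of a gene's probes (0.63) and the series matrix (0.55). Between LcPOU5F1 and mOct4, where Sema6c was not called, its probes differed in sign, with log2 differences of 0.09 and -0.35. For Sema6d, a ligand of plexin-A1, the 2 probes differed in sign between LcPOU5F1 and mOct4, with log2 differences of -0.51 and 0.85, and it was not called. Sema7a, the lipid-anchored semaphorin, varied widely between clones of 1 group. Its log2 levels were -0.62 and -2.66 in LcPOU5F3, 0.09 and 1.53 in LcPOU5F1 and -0.51 and -0.70 in mOct4, and no difference was called.

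Among the receptors of the semaphorins, 3 plexins were called. Plxna2, which encodes plexin-A2, a receptor of Sema6a and of neuropilin-bound semaphorins, had log2 levels of 0.51 and 0.77 in LcPOU5F3, -0.82 and -1.01 in mOct4 and -2.21 and -0.97 in LcPOU5F1. Both LcPOU5F3 clones were above the other lines. It was 4.69-fold lower in LcPOU5F1 than in LcPOU5F3 (log2 difference -2.23 ± 0.42), lost without either mOct4 clone (-2.23 each) or without LcPOU5F3 clone 2 (-2.10), and it was -1.47 with normexp correction. The log2 difference of 1.56 ± 0.42 between LcPOU5F3 and mOct4 was not called with the reported settings. It was called without LcPOU5F1 clone 4 or clone 5, at 1.56, and with normexp correction (1.23), centring on the median (1.59) or a probe required on all 6 arrays (1.56).

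Plxnb2, which encodes the Sema4c receptor plexin-B2, rose from log2 levels of 3.13 and 3.00 in mOct4 to 3.71 and 4.05 in LcPOU5F3, with 3.54 and 3.39 in LcPOU5F1 between them. The log2 difference of LcPOU5F3 from mOct4 was 0.82 ± 0.18, or 1.76-fold. It was lost without mOct4 clone 1 (0.88), mOct4 clone 2 (0.75), either LcPOU5F1 clone (0.82) or LcPOU5F3 clone 2 (0.65), and with centring on the median (0.85). Plxnd1, which encodes the Sema3e receptor plexin-D1, had log2 levels of -0.75 and -0.83 in mOct4, -1.68 and -1.47 in LcPOU5F1 and -1.54 and -1.61 in LcPOU5F3. The coelacanth groups overlapped each other and lay below mOct4. The log2 difference from mOct4 was -0.79 ± 0.15 in both, called in LcPOU5F3 (1.72-fold lower) and not in LcPOU5F1, and the call was lost without mOct4 clone 1 (-0.75), mOct4 clone 2 (-0.82) or LcPOU5F3 clone 2 (-0.75). It was also lost with centring on the median (-0.75) and with normexp correction (-0.51). The second Plxnd1 probe gave -0.82 in LcPOU5F3 and -0.09 in LcPOU5F1.

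Plxna1, Plxna3 and Plxnb1 were not called, with log2 differences between -0.45 and 0.71 in the 2 comparisons with mOct4. Nrp2, which encodes the co-receptor neuropilin-2, had log2 levels of 2.88 and 2.55 in mOct4, 1.55 and 2.98 in LcPOU5F1 and 2.57 and 2.81 in LcPOU5F3, all overlapping, and was not called. Plxna4, Plxnb3, Plxnc1 and Nrp1 were not tested; Nrp1 was well above background on the array of LcPOU5F3 clone 2 only, at a log2 level of -2.84.

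**Figure D2:**
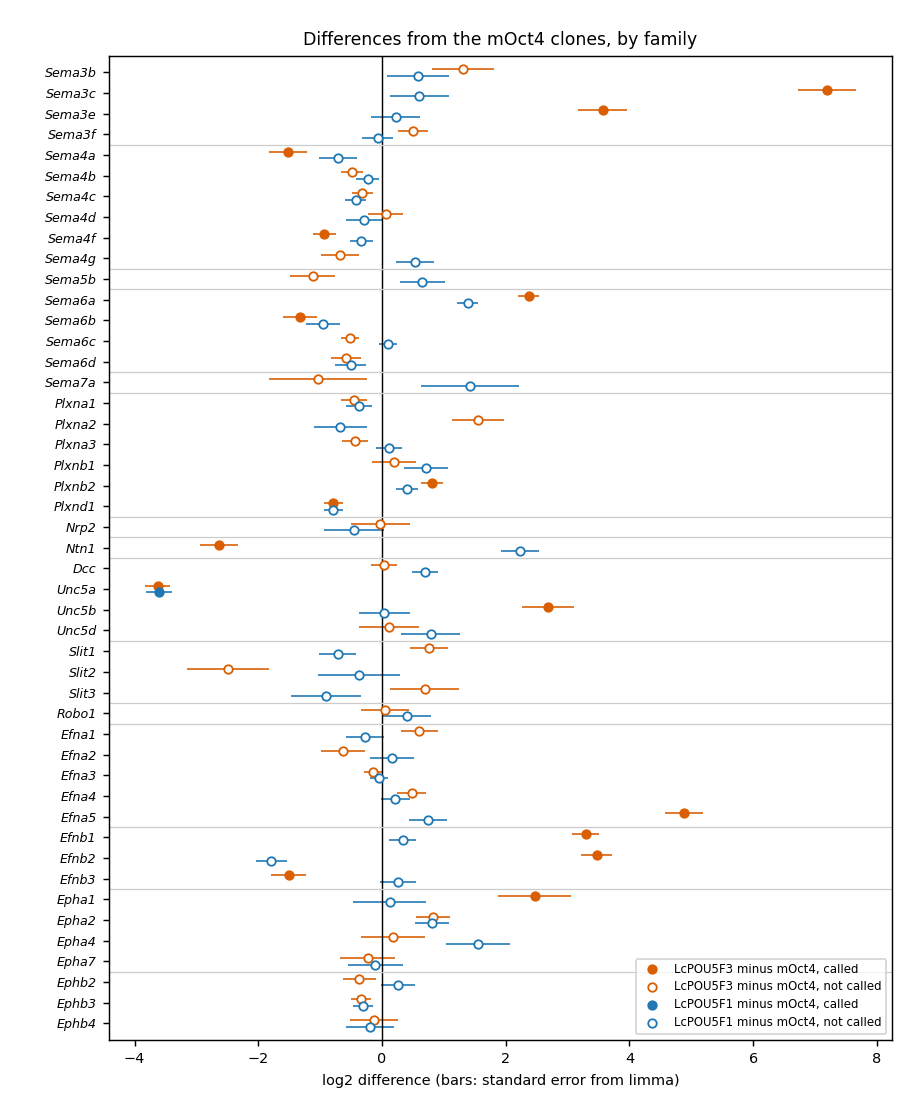
Log2 difference from the mOct4 clones (x axis, bars are standard errors from limma) of the 47 tested members, grouped by family, for LcPOU5F3 (orange) and LcPOU5F1 (blue), filled where called. Filled orange points lie on both sides of 0, and the only filled blue point is Unc5a at -3.60.

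Netrin-1 and its receptors moved in different directions. Ntn1, the secreted attractant for DCC-bearing axons, had log2 levels of 1.16 and 0.98 in LcPOU5F1, -0.94 and -1.38 in mOct4 and -4.18 and -3.42 in LcPOU5F3, where 1 of 2 arrays was well above background. The 3 groups did not overlap. It was 29.2-fold higher in LcPOU5F1 than in LcPOU5F3 (log2 difference 4.87 ± 0.31) and 6.22-fold lower in LcPOU5F3 than in mOct4 (-2.64 ± 0.31), the latter lost without mOct4 clone 1 (-2.42) or clone 2 (-2.85). LcPOU5F3 clone 1 lay below the lowest signal well above background on its array, so both folds rest on a dim signal. With normexp correction the differences were 2.91 and -1.14, both called, and a second probe gave 3.02 and -1.23.

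Between LcPOU5F1 and mOct4 the log2 difference of Ntn1 was 2.23 ± 0.31 (4.70-fold) and not called. It was called at 2.23 without LcPOU5F3 clone 1 or clone 2, at 1.84 with arrays centred on their medians and at 1.77 with normexp correction. Ntn4, a laminin-like netrin of basement membranes, was not tested: it was well above background on the array of LcPOU5F3 clone 2 only, at a log2 level of -1.86.

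Unc5a and Unc5b encode UNC5 proteins, receptors for netrin-1 with a death domain, and differed from each other. Unc5a had log2 levels of -0.99 and -1.24 in mOct4, -4.89 and -4.54 in LcPOU5F1 and -4.60 and -4.88 in LcPOU5F3, and no array of either coelacanth group was well above background. It was at least 4.19-fold lower in LcPOU5F3 than in mOct4 (log2 difference -3.63 ± 0.21) and at least 3.07-fold lower in LcPOU5F1 (-3.60 ± 0.21), the only member called in that comparison. The first call was lost without mOct4 clone 1 (-3.50), and the difference was -1.59 with normexp correction and -1.32 with a common floor on dim signals. The second was lost without mOct4 clone 1 (-3.48), mOct4 clone 2 (-3.73), LcPOU5F1 clone 4 (-3.43) or LcPOU5F1 clone 5 (-3.78), with a common floor (-1.32), with normexp correction (-1.40) and without the filter on dim probes (-3.60).

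Unc5b, by contrast, had log2 levels of 4.21 and 4.48 in LcPOU5F3, 1.56 and 1.76 in mOct4 and 1.09 and 2.31 in LcPOU5F1, with the last 2 groups overlapping. It was 6.43-fold higher in LcPOU5F3 than in mOct4 (log2 difference 2.68 ± 0.41) and 6.25-fold higher than in LcPOU5F1 (LcPOU5F1 minus LcPOU5F3 -2.64 ± 0.41). Both calls were lost without mOct4 clone 1 (2.59 and -2.64) or clone 2 (2.78 and -2.64). Dcc, the attractive netrin receptor, had log2 levels of 4.95 and 4.95 in mOct4, 5.41 and 5.87 in LcPOU5F1 and 5.12 and 4.84 in LcPOU5F3 and was not called. The other 2 Dcc probes were well above background on no array. Unc5d was not called and Unc5c was not tested.

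Of the Slits, the secreted ligands of Robos, 1 was called. Slit1 had log2 levels of -1.74 and -1.26 in LcPOU5F3, -2.42 and -2.10 in mOct4 and -3.30 and -2.65 in LcPOU5F1, which had no array well above background. The mOct4 clones lay between the coelacanth groups. It was at least 2.35-fold lower in LcPOU5F1 than in LcPOU5F3 (log2 difference -1.48 ± 0.30). The call held without LcPOU5F3 clone 1 and was lost without each of the other 5 clones, with values of -1.15 and -1.80 without LcPOU5F1 clones 4 and 5, -1.24 without LcPOU5F3 clone 2 and -1.48 without either mOct4 clone. It was also lost with a common floor on dim signals (-0.94), and with normexp correction the difference was -0.59.

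Slit2 had log2 levels of -2.22 and -2.03 in mOct4, -3.53 and -1.46 in LcPOU5F1 and -4.61 and -4.63 in LcPOU5F3, with neither LcPOU5F3 array well above background. It was at least 2.08-fold lower in LcPOU5F3 than in mOct4, a log2 difference of -2.49 ± 0.66 that was not called. Slit3 was not called. Robo1, a Slit receptor, had overlapping log2 levels of 1.14 and 0.46 in mOct4, 0.93 and 1.47 in LcPOU5F1 and 0.46 and 1.24 in LcPOU5F3 and was not called. Robo2, its neighbour on chromosome 16, was well above background on no array.

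Of the 8 ephrins, 4 were called between LcPOU5F3 and each of the other groups, 3 of them higher and 1 lower in LcPOU5F3. Efna5, the lipid-anchored ephrin-A5, a repellent in the retinal map, had log2 levels of 2.53 and 3.15 in LcPOU5F3, -2.00 and -2.09 in mOct4 and -0.99 and -1.61 in LcPOU5F1. The 3 groups did not overlap. It was 29.6-fold higher in LcPOU5F3 than in mOct4 (log2 difference 4.89 ± 0.31), lost without mOct4 clone 1 (4.93) or clone 2 (4.84), and 17.6-fold higher than in LcPOU5F1 (LcPOU5F1 minus LcPOU5F3 -4.14 ± 0.31).

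Efnb1, an X-linked transmembrane ephrin that sets up cell boundaries in the embryo, had log2 levels of 2.60 and 3.14 in LcPOU5F3, -0.46 and -0.40 in mOct4 and -0.14 and -0.04 in LcPOU5F1. Both LcPOU5F3 clones lay above the other 4 lines. It was 9.82-fold higher in LcPOU5F3 than in mOct4 (log2 difference 3.30 ± 0.22), lost without mOct4 clone 1 (3.26) or clone 2 (3.33), and 7.78-fold higher than in LcPOU5F1 (LcPOU5F1 minus LcPOU5F3 -2.96 ± 0.22).

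Efnb2, the ephrin-B2 of arterial endothelium, had log2 levels of 1.53 and 2.04 in LcPOU5F3, -1.49 and -1.87 in mOct4 and -3.62 and -3.32 in LcPOU5F1, where it was not well above background. The mOct4 clones lay between the coelacanth groups. It was 11.1-fold higher in LcPOU5F3 than in mOct4 (log2 difference 3.47 ± 0.25), lost without mOct4 clone 1 (3.66) or clone 2 (3.28). LcPOU5F1 minus LcPOU5F3 was -5.26 ± 0.25, at least 22.9-fold lower. Against mOct4, LcPOU5F1 was at least 2.07-fold lower; that log2 difference of -1.79 was not called and was called without LcPOU5F3 clone 1 or clone 2, at -1.79, with quantile normalization (-2.06) and with centring on the median (-2.18). A second Efnb2 probe, at log2 levels between -3.34 and -2.29 and well above background on 3 of 6 arrays, gave only 0.82 and -0.36 for the called comparisons, so the size of the difference rests on 1 probe. With the mean of both probes the differences were 2.14 and -2.81, and with normexp correction the second was -3.27, all called. For LcPOU5F1 against mOct4 the second probe gave 0.46, opposite in sign to the probe used. Neither LcPOU5F1 array was well above background on it.

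Efnb3, the third transmembrane ephrin, was lower in LcPOU5F3. Its log2 levels were 1.35 and 1.24 in mOct4, 1.48 and 1.63 in LcPOU5F1 and 0.18 and -0.61 in LcPOU5F3, which did not overlap the others. It was 2.85-fold lower in LcPOU5F3 than in mOct4 (log2 difference -1.51 ± 0.29) and 3.41-fold lower than in LcPOU5F1 (LcPOU5F1 minus LcPOU5F3 1.77 ± 0.29). Both calls were lost without mOct4 clone 1 (-1.45 and 1.77), mOct4 clone 2 (-1.57 and 1.77), LcPOU5F1 clone 4 (-1.51 and 1.85) or LcPOU5F1 clone 5 (-1.51 and 1.69).

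The other ephrin-A genes were not called. Efna4, an ephrin-A ligand, had log2 levels of 0.96 and 0.65 in mOct4, 1.24 and 0.81 in LcPOU5F1 and 1.46 and 1.12 in LcPOU5F3. Efna1, Efna3 and Efna4 lie next to each other on chromosome 3, and their log2 differences of LcPOU5F3 from mOct4 were 0.60, -0.14 and 0.48. A second Efna3 probe gave 0.56 against the -0.14 of the probe used. Efna2 lay at -0.62.

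**Figure D3:**
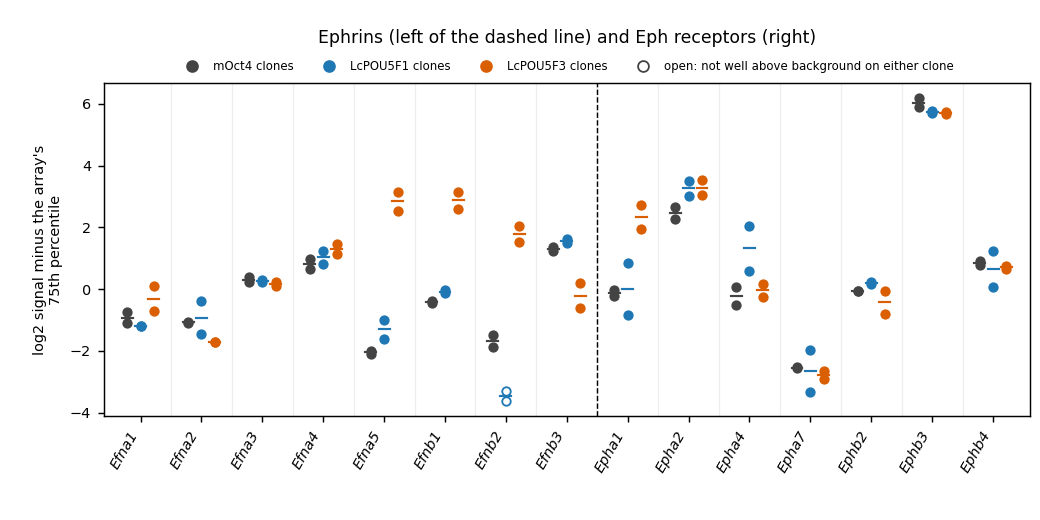
Log2 level (y axis, relative to the array's 75th percentile) of the 8 ephrins, left of the dashed line, and the 7 Eph receptors, right of it, with 1 point per clone, a bar at each group's mean and open points where no array of the group was well above background. Efna5, Efnb1 and Efnb2 have both LcPOU5F3 points above the rest, Efnb3 has them below, and Epha1 is the only receptor for which they stand above both other groups and were called.

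Of the 7 Eph receptors, 1 was called. Epha1, a receptor of ephrin-A1, had log2 levels of 1.95 and 2.72 in LcPOU5F3, -0.23 and -0.04 in mOct4 and 0.83 and -0.85 in LcPOU5F1. Both LcPOU5F3 clones were above the other lines, and the LcPOU5F1 clones spanned the mOct4 pair. It was 5.53-fold higher in LcPOU5F3 than in mOct4 (log2 difference 2.47 ± 0.59), lost without mOct4 clone 1 (2.37), mOct4 clone 2 (2.56) or LcPOU5F3 clone 2 (2.08), and with a common floor (2.47). It was 5.08-fold higher than in LcPOU5F1 (LcPOU5F1 minus LcPOU5F3 -2.34 ± 0.59), lost without either mOct4 clone (-2.34 each), LcPOU5F1 clone 5 (-1.51) or LcPOU5F3 clone 2 (-1.96), and with a common floor or the mean of a gene's probes (-2.34 each).

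Epha2, an EphA receptor of epithelial and early embryonic cells, had log2 levels of 2.64 and 2.27 in mOct4, 3.51 and 3.03 in LcPOU5F1 and 3.04 and 3.52 in LcPOU5F3. Both coelacanth groups lay above mOct4, by 0.82 ± 0.28 and 0.81 ± 0.28, and neither was called; without LcPOU5F3 clone 1 the LcPOU5F3 difference was called at 1.06. Ephb3, a receptor of the B ephrins, had log2 levels of 5.90 and 6.18 in mOct4, 5.77 and 5.69 in LcPOU5F1 and 5.66 and 5.75 in LcPOU5F3 and was not called. Epha4, Epha7, Ephb2 and Ephb4 were not called in any comparison. The LcPOU5F1 clones of Epha4 stood above all other lines, at log2 levels of 0.60 and 2.06, and their log2 difference from mOct4 was 1.55 ± 0.52.

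**Figure D4:**
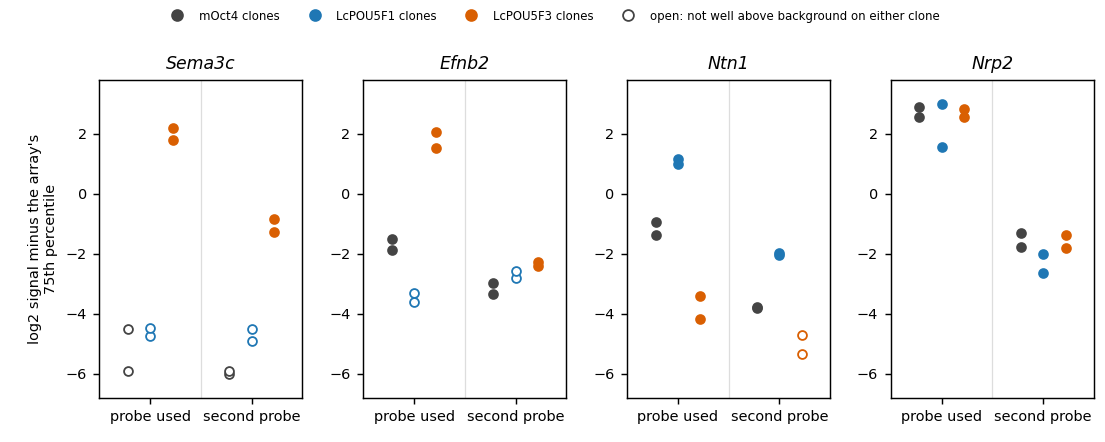
Log2 level (y axis, relative to the array's 75th percentile) on the probe used and on the second probe of Sema3c, Efnb2, Ntn1 and Nrp2, with 1 point per clone and open points where no array of the group was well above background. Sema3c and Ntn1 keep their order of groups on both probes, while the LcPOU5F3 points of Efnb2 lie above the other groups on both probes, far apart on the probe used and close to them on the second.

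Members with little signal are accounted for as follows. The 10 members left out of the fit were Sema3a, Sema3d, Sema5a, Plxna4, Plxnb3, Plxnc1, Nrp1, Ntn4, Unc5c and Robo2, and 6 of the 57 were well above background on no array. Of the 47 tested, 35 were well above background on all 6 arrays and 12 on some. Epha7 and Sema5b also had probes that differed in sign from the probe used, and those probes were well above background on at most 1 array.

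Other genes of the pathways were counted in 3 lists that hold none of the 57 members. These lists were chosen with earlier results of these data known, so nothing is read from their shares of calls. Of 28 further ligands, receptors and co-receptors, 16 were tested, and limma called 2 higher and 2 lower in LcPOU5F3 than in mOct4, where 11.8% and 11.7% of all genes were called. Of all 76 tested genes of the 3 lists, limma called 0 between LcPOU5F1 and mOct4, where 4 had an unadjusted p under 0.05 and were higher and 5 were lower, together 11.8%, beside 15.6% of all genes. Flrt3, a membrane protein that binds Unc5 and Robo receptors, was 10.0-fold higher (log2 difference 3.33 ± 0.40, limma with Benjamini-Hochberg adjustment, adjusted p = 0.0101), and Dscaml1, a cell adhesion molecule, was 5.70-fold higher (2.51 ± 0.33, limma adjusted p = 0.0120). Robo4, the endothelial Robo, was 5.76-fold lower (-2.53 ± 0.22, limma adjusted p = 0.00626) and Flrt1 1.90-fold lower (-0.93 ± 0.22, limma adjusted p = 0.0415). In each case both LcPOU5F3 clones lay on the same side of both mOct4 clones. Dscaml1 was well above background on 1 of 2 mOct4 arrays and Flrt1 on 1 of 2 LcPOU5F3 arrays, so their folds rest on a dim signal.

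Downstream of the receptors, all 47 listed signalling genes were tested, and 16 were called higher and 5 lower in LcPOU5F3 than in mOct4. Of all genes, 11.8% were called higher and 11.7% lower in that comparison. Crmp1, a collapsin response mediator of semaphorin signals, was at least 6.09-fold lower (log2 difference -4.09 ± 0.38, limma adjusted p = 0.00642). Farp1, an exchange factor that plexins use, was 6.61-fold higher (2.72 ± 0.27, limma adjusted p = 0.00711), the GTPase gene Rhod 3.46-fold higher (1.79 ± 0.19, limma adjusted p = 0.00756) and Micall1 2.85-fold higher (1.51 ± 0.18, limma adjusted p = 0.00978). Between LcPOU5F1 and LcPOU5F3, 5 were higher and 12 lower, beside 10.6% and 9.99% of all genes, among them Micall1 at -2.52 ± 0.18 and Nck2, an adaptor of Eph receptors and DCC, at -2.52 ± 0.30.

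Among the listed proteoglycans and proteases that bind or cut guidance ligands, the calls went in 1 direction. This list too was chosen with earlier results known, so its counts and median are a description and carry no test. Of 14 tested, 8 were called higher and 0 lower in LcPOU5F3 than in mOct4, and 0 were higher and 9 lower in LcPOU5F1 than in LcPOU5F3, beside 11.8% of all genes higher in the first comparison and 9.99% lower in the second. At an unadjusted limma p under 0.05 the counts were 11 higher and 0 lower, and 0 higher and 11 lower, where 40.2% and 39.5% of all genes passed. Mmp14, a membrane protease, was 3.39-fold higher in LcPOU5F3 than in mOct4 (log2 difference 1.76 ± 0.17, limma adjusted p = 0.00678). Sdc2, a syndecan, was 2.86-fold higher (1.52 ± 0.16, limma adjusted p = 0.00772), Furin, a convertase that cleaves class 3 semaphorins, 2.34-fold higher (1.23 ± 0.15, limma adjusted p = 0.00978) and the glypican Gpc4 4.29-fold higher (2.10 ± 0.26, limma adjusted p = 0.0106). The median log2 difference of this list was 1.01 for LcPOU5F3 against mOct4, beside -0.09 over all genes.

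Without mOct4 clone 1 or clone 2, limma called 0 of the 76 pathway genes in LcPOU5F3 against mOct4. At an unadjusted p under 0.05, 22 were then higher and 8 lower without clone 1, and 25 and 6 without clone 2. The values of the genes named here then lay between -4.23 (Crmp1 without clone 2) and 3.33 (Flrt3 without clone 1). Without LcPOU5F1 clone 4 or clone 5, 7 of the 14 proteoglycan and protease genes were called higher in that comparison, and 10 of the 47 signalling genes were higher and 3 lower. Between the coelacanth groups, the 9 proteoglycan and protease calls fell to 1 without LcPOU5F1 clone 4 or clone 5 and to 3 without either mOct4 clone. The signalling genes then had 1 higher and 1 lower without LcPOU5F1 clone 4, 1 and 3 without clone 5, and 0 and 2 without either mOct4 clone. Flrt1 was called against mOct4 in 1 of the 6 fits that left out a clone, that without LcPOU5F3 clone 1. Nck2 was not called between the coelacanth groups without LcPOU5F1 clone 4 (-2.64) or clone 5 (-2.40). Over all genes, fewer were also called for LcPOU5F3 against mOct4 and between the coelacanth groups without an LcPOU5F1 or an mOct4 clone.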

How the data were processed

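Total RNA of 6 lines (2 clones for each of 3 groups) was hybridised to 1-colour Agilent arrays. Per the file headers, the authors' spot intensity came from Feature Extraction 11.0.1.1 as linear, background-subtracted processed intensity, with flags for signals well above background; the array design names build mm9. The deposited series matrix holds the same intensity rounded and linear, with no further scaling found; it was an alternative. Log2 values were computed here from the deposited intensity and centred on each array's 75th percentile, leaving out control and outlier-flagged spots and averaging spots of 1 probe. Probes were named through RefSeq accessions (GRCm38.p6, names only), giving 27656 probes 1 symbol and leaving 28025 unnamed. A probe was kept if 1 group or more had it well above background in both clones, and a gene took its kept probe of the highest mean. Limma 3.58.1 in R 4.3.3 fitted 3 group means to all 6 arrays, with Benjamini-Hochberg adjustment over 14595 genes. The limma fit was tested on simulated data with large planted changes. Smaller changes were not planted there.

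The members, pathway lists, marker lists and naming rule were chosen with earlier results of these data known. The rule names each member called in any comparison, the member of each family with the highest signal among those well above background on all arrays, members whose probes differ in sign or by more than 1 on the log2 scale, and up to 4 called genes of the smallest adjusted p per pathway list. Adam10 stands in 2 of the pathway lists. The labels do not say whether clone numbers shared by mOct4 and LcPOU5F3 mark a shared culture. Slide 1 held 5 arrays and slide 2 held mOct4 clone 2 alone, so the slide as a block equals leaving out that clone. Alternatives were quantile normalization, median centring, normexp background correction (offset 50, on the median intensity, since no mean intensity was among the columns used), no filter, a stricter filter, the mean of a gene's probes, a common floor, only the 4 arrays compared, the series matrix, a threshold of 0.01, a replicate block and each clone left out.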

Additional observations from a re-analysis of the deposited data

Results flagged for a closer look

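On the probe used, 5 members had the coelacanth groups on opposite sides of the mOct4 pair with no overlap between clones. The direct difference between LcPOU5F1 and LcPOU5F3 was called for each. The share of all genes that meet this rule is not given, so nothing is read from the count. Sema5b was higher in LcPOU5F1, by 1.77 on the log2 scale. Ntn1 was higher in LcPOU5F1 by 4.87, and Efnb3 by 1.77. Slit1 had a log2 difference of -1.48, lower in LcPOU5F1, and Efnb2 one of -5.26. On the second Efnb2 probe both coelacanth groups lay above mOct4, by 0.46 in LcPOU5F1 and 0.82 in LcPOU5F3. For Sema5b and Slit1, neither coelacanth group passed limma's test against mOct4 (adjusted p from 0.0809 to 0.432), and for Ntn1, Efnb2 and Efnb3 only the LcPOU5F3 side did.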

How the results depend on the processing

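No named log2 difference changed sign while called. Of the 31 called differences, 15 held under each processing alternative in which the gene was fitted. Those alternatives are the ones listed above from quantile normalization to the series matrix. The 0.01 threshold, the replicate block, the slide block and left-out clones are not counted among them. Genes not well above background on all 6 arrays dropped out under the stricter filter, which thus did not test them. The counts below are members called higher and lower, first for LcPOU5F3 against mOct4 (9 and 7 with the reported settings), then LcPOU5F1 against mOct4 (0 and 1), then LcPOU5F1 against LcPOU5F3 (4 and 10). Leaving out 1 clone gave ranges of 1 to 10 and 0 to 8, 0 to 2 and 0 to 2, and 1 to 9 and 5 to 10. The slide as a block gave 1 and 1, 0 and 0, and 2 and 5. With a replicate block, which can only be fitted for LcPOU5F3 against mOct4, the counts were 0 and 0. The deviations of same-numbered clones correlated at -0.10. With 2 clones a group this cannot decide whether same-numbered clones shared their handling. Without the filter on dim probes the counts were 8 and 2, 0 and 0, and 1 and 6, with a probe required on all 6 arrays 7 and 5, 0 and 0, and 3 and 6, and with only the 4 arrays compared 10 and 6, 2 and 2, and 2 and 5. An adjusted p under 0.01 gave 6 and 2, 0 and 0, and 1 and 4. Between LcPOU5F1 and mOct4, quantile normalization gave 0 and 2, median centring 1 and 2, normexp correction 1 and 0, and a common floor 0 and 0. Median centring shifted the median over all genes in that comparison from 0.10 to -0.29 and between the coelacanth groups from 0.21 to -0.22. The members' median log2 differences had no stable sign. For LcPOU5F3 against mOct4 it was -0.026, against 0.047 without the filter, 0.033 with the mean of a gene's probes, -0.18 with the slide block and -0.18 to -0.026 over left-out clones. For LcPOU5F1 against mOct4 it was 0.09, against -0.027 with quantile normalization, -0.30 with median centring, 0.15 without the filter and -0.019 to 0.23 over left-out clones. Between the coelacanth groups it was 0.026, against -0.095 with quantile normalization, -0.40 with median centring, 0.036 with normexp correction, 0 with a common floor, -0.027 with the series matrix and -0.017 to 0.080 over left-out clones. The cause of these shifts was not tested. Limits are 2 clones a group, 1 array each, a signal floor that differed between arrays, from log2 levels of -3.91 to -2.44, and second probes for part of the members only.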
